A study of Mus musculus with 6 samples.

Results

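Interferon-stimulated genes are the genes that cells switch on when an interferon binds its receptor. A list of 43 of them was followed in group 2 innate lymphoid cells (ILC2s) of mouse lung, and 42 had values among the 17546 genes of the count table; Iigp1 was not analysed here. The genes were chosen by name, with earlier results of these libraries known. Of the 42 genes, 36 were grouped as type I-like, that is classical antiviral genes, and 6 encode guanylate-binding proteins or immunity-related GTPases.

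The ILC2s were isolated from lungs of BALB/c mice after 3 i.n. injections of 1 µg recombinant IL-33, a cytokine released by damaged epithelium that activates these cells. Both groups were kept in IL-2 and IL-7, each at 10 ng/mL. The Yoda1 group (libraries 4, 5 and 6) was exposed for 24 h to 10 µM Yoda1, a small molecule that opens the mechanosensitive cation channel Piezo1, and the control group (libraries 1, 2 and 3) to DMSO. The labels give neither the age or sex of the mice nor the number of animals behind a library. DMSO 2 and DMSO 3 share a label number, as do Yoda1 4 and Yoda1 5, and the p-values measure only the spread between these libraries, which may be technical.

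As background, type I interferons act through a receptor made of IFNAR1 and IFNAR2, and interferon gamma through IFNGR1 and IFNGR2. JAK kinases at these receptors activate transcription factors of the STAT family. A complex that holds STAT2 and IRF9 binds a DNA element called ISRE and drives the antiviral genes, while an element called GAS is typical of interferon gamma targets. The guanylate-binding proteins and immunity-related GTPases attack the vacuoles of intracellular microbes. In ILC2s, interferons are known to restrain growth and type 2 cytokine output.

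The promoters are shown first because these elements are where the interferon signal reaches the genes. RefSeq (GRCm38.p6) had a promoter entry for 34 of the 43 genes, 28 type I-like and 6 GTPase genes. Without an entry were Dhx58, Zbp1, Mx1, Rtp4, Ifi27, Usp18, Parp9, Parp14 and Iigp1. The 250 bases before each start were searched on both strands for an ISRE core (GAAA, any 2 bases, GAAA) and a GAS core (TTCNNNGAA), and a base could belong to both. Some genes have several entries, and a gene was counted when any of its entries matched. The ISRE core was present at 5 of the 6 GTPase genes (83.3%), at 7 of the 28 type I-like genes (25%) and at 3.46% of the 27025 genes with an entry. The GAS core was present at 2 of the 6 GTPase genes (33.3%), 5 of the 28 type I-like genes (17.9%) and 8.13% of all genes. A match describes letters in this window and not a bound site.

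The 120 bases before the start are given for the 6 GTPase genes, most of which hold the ISRE core, for Isg15, a classical type I target with 3 overlapping matches, and for Slfn2 and Lgals3bp, which passed the test described further on. Each runs 5′ to 3′ on the strand of the gene and ends at the base before the start. Capitals mark matches to either core.
Isg15 (chr4:156200819-156200938, minus strand): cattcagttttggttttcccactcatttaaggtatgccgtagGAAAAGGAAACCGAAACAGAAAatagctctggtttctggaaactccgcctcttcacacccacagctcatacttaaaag
Gbp2 (chr3:142620543-142620662, plus strand): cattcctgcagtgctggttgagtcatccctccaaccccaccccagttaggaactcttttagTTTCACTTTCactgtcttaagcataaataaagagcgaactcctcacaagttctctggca
Gbp3 (chr3:142559924-142560043, plus strand): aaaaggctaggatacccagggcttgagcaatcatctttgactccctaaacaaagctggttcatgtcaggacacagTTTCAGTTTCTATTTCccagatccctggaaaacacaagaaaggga
Gbp7 (chr3:142530216-142530335, plus strand): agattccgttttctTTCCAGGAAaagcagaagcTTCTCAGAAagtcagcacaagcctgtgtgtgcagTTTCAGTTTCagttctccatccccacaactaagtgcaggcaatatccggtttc
Igtp (chr11:58199436-58199555, plus strand): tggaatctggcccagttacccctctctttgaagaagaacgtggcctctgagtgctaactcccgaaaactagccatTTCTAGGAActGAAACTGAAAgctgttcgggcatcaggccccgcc
Irgm1 (chr11:48871421-48871540, minus strand): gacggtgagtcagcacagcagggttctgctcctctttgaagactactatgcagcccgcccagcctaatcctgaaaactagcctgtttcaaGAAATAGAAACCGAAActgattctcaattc
Ifi47 (chr11:49076467-49076586, plus strand): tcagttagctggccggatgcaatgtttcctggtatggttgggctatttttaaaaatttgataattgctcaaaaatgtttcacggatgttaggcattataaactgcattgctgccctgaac
Slfn2 (chr11:83064992-83065111, plus strand): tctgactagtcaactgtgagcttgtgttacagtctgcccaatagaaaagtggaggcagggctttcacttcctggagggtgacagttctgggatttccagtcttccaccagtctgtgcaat
Lgals3bp (chr11:118401960-118402079, minus strand): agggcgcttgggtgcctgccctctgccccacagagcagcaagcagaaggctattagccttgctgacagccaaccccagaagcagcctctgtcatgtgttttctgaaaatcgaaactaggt
Gbp7 and Igtp held both cores, and Gbp2, Gbp3, Irgm1 and Isg15 held the ISRE core without the GAS core. Another Gbp3 entry (chr3:142560106-142560355), not shown, held neither core. Neither core was found in the 250 bases before Slfn2, Lgals3bp or Ifi47.

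Library depth ran from 14214048 to 31627519 counts. Expression levels are given in CPM, with library sizes corrected by TMM factors, and values run in the order DMSO 1, 2 and 3, then Yoda1 4, 5 and 6. All 12 ILC2 markers had values, among them Gata3 at 781 to 1032 CPM and Il1rl1, the IL-33 receptor gene, at 556 to 699.5 CPM, although Thy1 was at most 2.87 CPM. Of the 12, 0 were called higher and 2 lower (Icos and Il2ra) by the test described further on. Of all tested genes, 0.570% were called higher and 0.923% lower. The 12 include Il5, Il13 and Areg, genes of secreted factors. The summed level of all 12 was 10200 to 10800 with DMSO and 11000 to 12000 with Yoda1, in CPM of all counts. Markers of other cells were summed in the same way. The sums of B cell, plasmacytoid dendritic cell, neutrophil and endothelial markers overlapped between the groups. The macrophage sum was 10.5 to 13.4 with DMSO and 19 to 23.8 with Yoda1. Natural killer cell and ILC1 markers summed to 35.9 to 59.3 with DMSO and 11.4 to 15.4 with Yoda1, T cell markers to 33.7 to 36.6 with DMSO and 19.4 to 29.1 with Yoda1, epithelial markers to 86.9 to 400 with DMSO and 50 to 70.2 with Yoda1, and dendritic cell markers to 133 to 142 with DMSO and 146 to 158 with Yoda1. Of the tested genes of these lists, 0 of 2 macrophage, 1 of 1 natural killer (Gzma, lower), 0 of 2 T cell, 0 of 2 epithelial and 0 of 2 dendritic cell markers were called. The natural killer list had no values for Ncr1 and Klrb1c, and the T cell list none for Cd8a and Cd8b1. Values were also lacking for Marco and Mertk (macrophage), Flt3 and Clec9a (dendritic cell) and Sftpb (epithelial). Each sum holds only the remaining genes of its list. The macrophage marker Adgre1 was at 0 in the 3 Yoda1 libraries. The club cell gene Scgb1a1 reached 302 CPM of all counts in DMSO 2 and 293 in DMSO 3, against 0.0585 in Yoda1 6 and 0 in the other libraries, so a comparison with DMSO 1 as the only control is given where a call rests on them. The part of these cells in the results was not tested.

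Changes are given on the log2 scale, Yoda1 relative to DMSO, with standard errors (SE), from the quasi-likelihood test of edgeR across all genes with Benjamini-Hochberg adjustment. A gene was called when its adjusted p was under 0.05. Of the 42 genes, 37 passed the filter on low counts. Among them 1 gene was higher (2.70%) and 1 was lower (2.70%), against 0.570% and 0.923% of all 13325 tested genes, and 35 were not called. Slfn2 rose and Lgals3bp fell. The median change of the 37 genes was 0.05, beside 0.01 for all tested genes, with 20 positive and 17 negative. The groups did not overlap for 8 genes in the higher direction (21.6%, background 10.6%) and for 4 in the lower direction (10.8%, background 12.0%). An unadjusted p under 0.05 was reached by 3 higher genes (Slfn2, Samd9l and Gbp2) and 3 lower genes (Lgals3bp, Igtp and Ifi47), where 7.39% and 7.11% of all genes did. In bulk RNA, fewer cells of a type and less RNA per cell cannot be told apart.

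**Figure D1:**
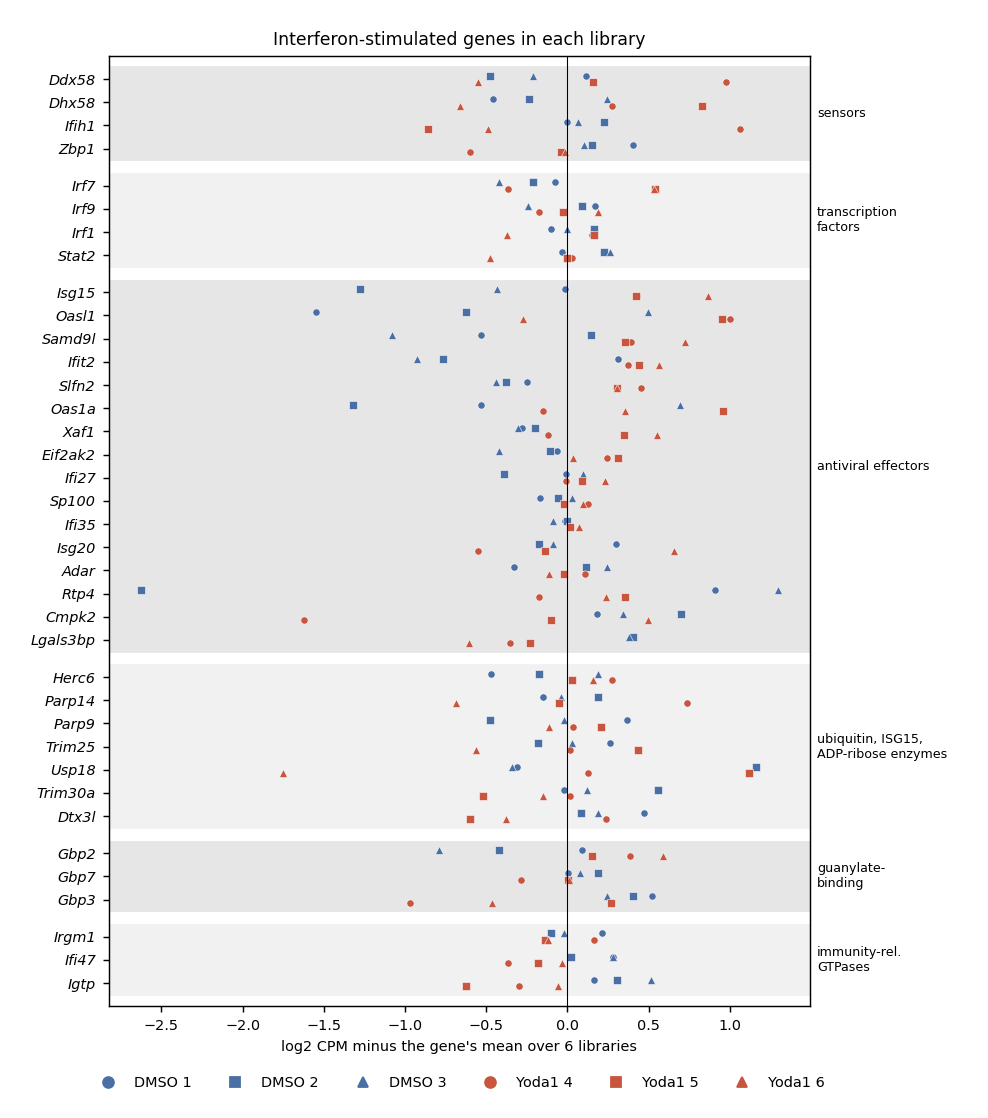
Level of the 37 tested genes in each library, as log2 CPM minus the mean of the gene over the 6 libraries (x axis), by role (y axis); blue points are DMSO, red points Yoda1, and the shape names the library. The colours separate for Slfn2 and Lgals3bp with little spread inside a group, and mix for all transcription factors and all ubiquitin, ISG15 and ADP-ribose enzymes.

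Slfn2 encodes a Schlafen family protein tied to lymphocyte quiescence and lies on chromosome 11 at 83065112 to 83070678 (GRCm38). Its level was 179, 163 and 156 CPM with DMSO and 291, 262 and 262 CPM with Yoda1, so that every Yoda1 library was above every DMSO library. The means were 166 ± 11.4 and 272 ± 16.4 CPM (SD, n = 3 each). The change was 0.71 (SE 0.10; edgeR, adjusted p = 0.0163).

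Lgals3bp encodes a secreted glycoprotein that binds galectin-3 and lies on chromosome 11 at 118392751 to 118402092. Its level was 584, 587 and 575 CPM with DMSO and 347, 378 and 292 CPM with Yoda1. The DMSO libraries lay close together and all Yoda1 libraries were below them. The means were 582 ± 5.88 and 339 ± 43.8 CPM (SD, n = 3 each). The change was -0.78 (SE 0.11; edgeR, adjusted p = 0.0129).

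The sizes of both changes held when a library was left out, but not every call did. Without DMSO 1, 2 or 3, in that order, the change of Slfn2 was 0.77, 0.70 and 0.66 (edgeR, adjusted p = 0.0658, 0.126 and 0.137). That of Lgals3bp was -0.78, -0.77 and -0.80 (adjusted p = 0.0769, 0.104 and 0.105). These fits called few genes of any kind: 0.0647%, 0.0646% and 0.0287% of all genes higher and 0.180%, 0.0933% and 0.0358% lower. Slfn2 was also not called without Yoda1 5, at a change of 0.74 (adjusted p = 0.0813). Without Yoda1 4, 5 or 6 the shares of all genes called were 0.336%, 0.05% and 0.528% higher and 0.714%, 0.193% and 1.04% lower.

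In 3 further fits almost no gene was called, and only the changes are given. With DMSO 1 as the only control, where the spread comes from the Yoda1 libraries alone and 0% of all genes were called in either direction, the changes of Slfn2 and Lgals3bp were 0.60 and -0.79. With libraries of a shared label number summed (0.00699% of all genes called higher and 0% lower) they were 0.66 and -0.84. The label suffix was 0 for DMSO 1 and DMSO 2 and from 45 to 48 for the other 4 libraries, so a fit with it as a term sets the Yoda1 libraries against DMSO 3. In that fit (0.0150% of all genes higher and 0.00750% lower) the changes were 0.80 and -0.76. Per kilobase of exon, Lgals3bp and Slfn2 had the highest levels of the tested type I-like genes, 162 and 132 CPM per kilobase over the 6 libraries.

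The 4 sensors of foreign nucleic acid were detected in all libraries and none was called. Ddx58 encodes RIG-I and Ifih1 encodes MDA5, which recognise viral RNA, and Dhx58 encodes their relative LGP2. Ddx58 was at 67.5, 44.9 and 53.8 CPM with DMSO and 123, 69.6 and 42.7 CPM with Yoda1. Its Yoda1 values included both the highest and the lowest library, and its change was 0.50 (SE 0.34; edgeR, adjusted p = 0.559). The value rested on Yoda1 4, without which it was 0.02; it was 0.21 with DMSO 1 alone, 0.26 with summed libraries and 0.80 without Yoda1 6. Zbp1, a sensor of Z-form nucleic acid, was at 46.7, 39.2 and 37.9 CPM with DMSO and 23.2, 34.4 and 34.9 CPM with Yoda1. Its groups did not overlap, and its change of -0.42 (SE 0.21; edgeR, adjusted p = 0.411) was not called and was -0.25 without Yoda1 4. Dhx58 and Ifih1 overlapped between groups, with changes of 0.40 (SE 0.42) and 0.06 (SE 0.71).

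The 4 transcription factors of the response overlapped between groups. Irf7, which amplifies interferon alpha output, was at 12.1, 11.01 and 9.48 CPM with DMSO and 9.87, 18.6 and 18.5 CPM with Yoda1. Yoda1 4 lay within the DMSO range, and the change was 0.53 (SE 0.31; edgeR, adjusted p = 0.483). Stat2 was at 42.3, 50.7 and 52 CPM with DMSO and 44.1, 43.2 and 31.03 CPM with Yoda1, with a change of -0.29 (SE 0.19; edgeR, adjusted p = 0.543). Its change was -0.11 with DMSO 1 alone and -0.15 without Yoda1 6. Irf9, the partner of STAT2, and Irf1, which acts downstream of interferon gamma, had changes of -0.01 (SE 0.18) and -0.03 (SE 0.17).

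Of the 21 antiviral effectors, 5 were too low to be tested. Ifit1, which binds foreign RNA caps, had 1, 54 and 14 counts in the DMSO libraries and 2, 1 and 5 in the Yoda1 libraries. Mx1, a dynamin-like antiviral protein, had 26 counts in DMSO 2, 1 in Yoda1 5, 2 in Yoda1 6 and 0 in the other 3 libraries. DMSO 2, the deepest library, held the most counts of both. It was also highest in CPM of all counts, at 1.71 for Ifit1 and 0.822 for Mx1. The other libraries were at most 0.985 and 0.117. Ifit3, a partner of IFIT1, had 28 counts in Yoda1 4, 23 in DMSO 2 and 3 to 5 elsewhere. Oasl2, of the oligoadenylate synthetase family, had 1 to 3 counts and Rsad2, which encodes viperin, 0 to 10. A count of 0 leaves room for a level of 0.0949 CPM in DMSO 2 and 0.211 CPM in DMSO 3 (a limit of 3 counts, counting error only).

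Of the 16 effectors tested, 12 had positive and 4 negative changes, with a median of 0.29. Slfn2 rose, Lgals3bp fell and the other 14 were not called. In the higher direction the groups did not overlap for 7: Slfn2, Isg15, Samd9l, Ifit2, Xaf1, Eif2ak2 and Ifi35 (43.8%, beside 10.6% of all genes). In the lower direction this held for 1, Lgals3bp (6.25%, beside 12.0%). Isg15, a ubiquitin-like protein that is joined to other proteins, was at 2.87, 1.14 and 2.12 CPM with DMSO and 3.94, 3.92 and 5.37 CPM with Yoda1. Its change of 1.11 (SE 0.51; edgeR, adjusted p = 0.362) had the highest value of the 37 genes. Samd9l, an antiviral factor that blocks translation, was at 7.62, 12.2 and 5.16 CPM with DMSO and 14.5, 14.1 and 18.3 CPM with Yoda1, with a change of 0.90 (SE 0.35; edgeR, adjusted p = 0.283). Ifi35 was at 196, 197 and 186 CPM with DMSO and 199.7, 200.1 and 207 CPM with Yoda1, and its change of 0.07 (SE 0.094) had the smallest SE of the 37 genes. Isg15, Samd9l and Ifi35 were singled out after their values were seen. Ifi27, Isg20, Oas1a, Oasl1, Sp100, Adar, Rtp4 and Cmpk2 overlapped between groups.

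**Figure D2:**
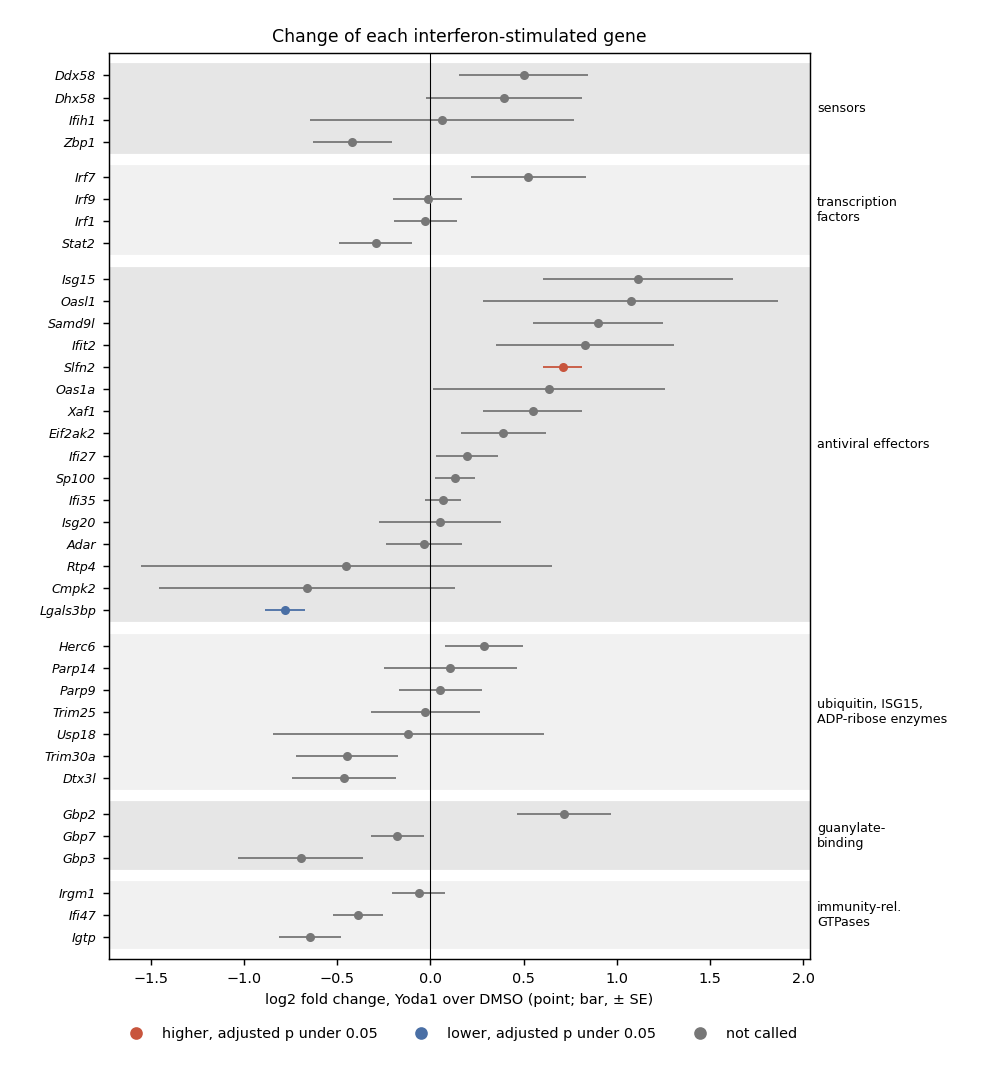
Change of Yoda1 relative to DMSO on the log2 scale (x axis; point with ± SE) of the 37 tested genes by role (y axis), with genes called higher in red, called lower in blue and not called in grey. Slfn2 (0.71) and Lgals3bp (-0.78) are the 2 coloured genes, and the low-level genes Oasl1 and Rtp4 have long bars.

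Precision followed abundance. The 9 tested genes under 10 CPM had a median SE of 0.708 and the 28 at 10 CPM or more a median SE of 0.211. The changes of Isg15 and Oasl1 were not separable from the spread between libraries. Within the DMSO libraries alone, Oasl1 ran from 0.331 to 1.698 CPM.

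**Figure D3:**
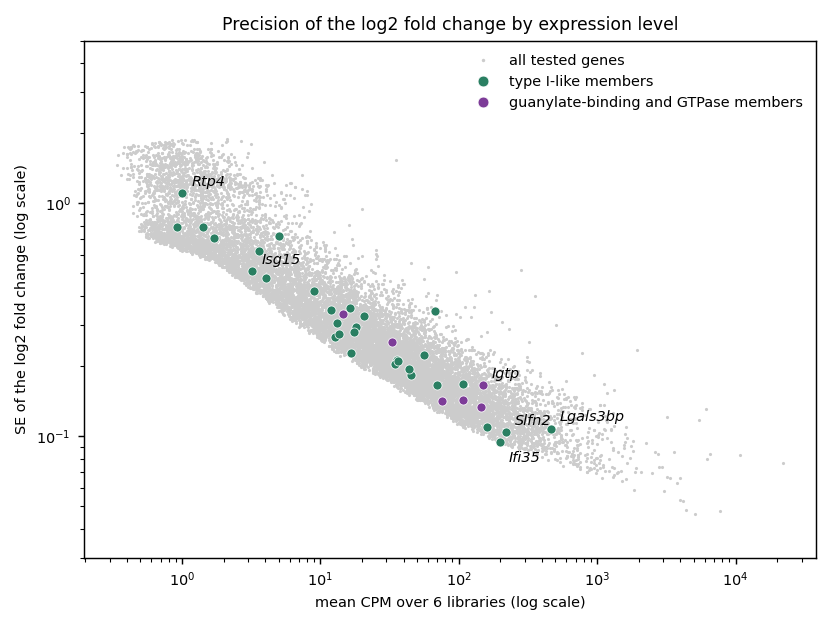
SE of the log2 change (y axis, log scale) against mean CPM over the 6 libraries (x axis, log scale) for all 13325 tested genes (grey), the type I-like genes (green) and the guanylate-binding and GTPase genes (purple). The SE declines with level, from 1.10 for Rtp4 at 1.004 CPM to 0.11 for Lgals3bp at 460.4 CPM.

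None of the 7 genes for ubiquitin, ISG15 and ADP-ribose enzymes was called, and all 7 overlapped between groups. Dtx3l, a ubiquitin ligase that works with the ADP-ribosyltransferase PARP9, was at 23.6, 18.1 and 19.5 CPM with DMSO and 20.1, 11.2 and 13.1 CPM with Yoda1, with a change of -0.46 (SE 0.28; edgeR, adjusted p = 0.499). Without Yoda1 4 and without Yoda1 5 it was -0.75 and -0.30. Trim30a, a tripartite motif protein, was at 13.02, 19.5 and 14.4 CPM with DMSO and 13.4, 9.17 and 11.9 CPM with Yoda1, with a change of -0.45 (SE 0.27; edgeR, adjusted p = 0.508), and -0.26 without DMSO 2 or -0.19 with DMSO 1 alone. Usp18, which removes ISG15 and damps the type I receptor, had a change of -0.12 (SE 0.73). Herc6, an ISG15 ligase of the mouse, and Trim25, a ubiquitin ligase that acts on RIG-I, had changes of 0.29 (SE 0.21) and -0.03 (SE 0.29), and Parp9 and Parp14, ADP-ribosyltransferases, of 0.05 (SE 0.22) and 0.11 (SE 0.36). The counts of Dtx3l, Parp9, Herc6, Irf1, Sp100 and Ifi35 were whole in 0 of 6 libraries, and how the authors' counting split reads of these genes is uncertain.

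The 3 guanylate-binding proteins had changes of both signs and none was called. Gbp2 was at 33.4, 23.4 and 18.1 CPM with DMSO and 41.2, 34.97 and 47.3 CPM with Yoda1. All Yoda1 libraries were above the DMSO libraries, and the change was 0.72 (SE 0.25; edgeR, adjusted p = 0.236). It was 0.29 with DMSO 1 alone and 1.18 with the suffix term. Gbp3, its neighbour on chromosome 3, was at 19.6, 18.1 and 16.1 CPM with DMSO and 6.905, 16.4 and 9.85 CPM with Yoda1. Yoda1 5 lay inside the DMSO range, and the change was -0.70 (SE 0.33; edgeR, adjusted p = 0.383), or -0.45 without Yoda1 4 and -1.10 without Yoda1 5. Gbp7, in the same cluster, was at 76.2, 86.5 and 80.02 CPM with DMSO and 62.2, 76.1 and 76.3 CPM with Yoda1, with a change of -0.18 (SE 0.14). The 3 genes are paralogs of similar sequence, and their counts were whole in 6, 5 and 2 of the 6 libraries for Gbp2, Gbp3 and Gbp7.

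The 3 immunity-related GTPases tested had negative changes and none was called. Igtp, also known as Irgm3, was at 162, 179 and 206 CPM with DMSO and 117, 93.5 and 139 CPM with Yoda1. The groups did not overlap, with means of 182 ± 22.5 and 116 ± 22.6 CPM (SD, n = 3 each). Its change was -0.64 (SE 0.16; edgeR, adjusted p = 0.105), or -0.48 with DMSO 1 alone and -0.82 with the suffix term. Igtp was called lower by DESeq2 (adjusted p = 0.00513). Of the 10997 genes to which DESeq2 gave an adjusted p, it called 4.17% lower and 3.65% higher. It was also called lower by edgeR with a filter of 10 CPM in 3 libraries (adjusted p = 0.0272), where 3.40% of genes were lower and 1.85% higher. Ifi47 was at 174, 146 and 174 CPM with DMSO and 111, 126 and 140.1 CPM with Yoda1, with a change of -0.39 (SE 0.13; edgeR, adjusted p = 0.221) and no overlap. Irgm1, a regulator of the other GTPases, was at 123, 99.3 and 105 CPM with DMSO and 119, 96.7 and 97.9 CPM with Yoda1, and its groups overlapped. Per kilobase of exon, Igtp and Ifi47 had the highest levels of their class, 73.8 and 58.7 CPM per kilobase. Igtp counts were whole in 0 libraries and Ifi47 counts in 1.

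Side by side, the median change was 0.07 over 31 type I-like genes, with 19 positive and 12 negative, and -0.28 over 6 GTPase genes, with 1 positive and 5 negative. Calls were 2 of 31 and 0 of 6. The level of a class in a library was taken as the median over its genes of log2 CPM minus the gene's mean over the 6 libraries. For the GTPase genes it was 0.188, 0.106 and 0.159 in the DMSO libraries and -0.293, -0.0665 and -0.0451 in the Yoda1 libraries. For the type I-like genes it was -0.02, -0.108 and 0.0263 in the DMSO libraries and 0.109, 0.156 and 0.0344 in the Yoda1 libraries. Neither class overlapped, but DMSO 3 and Yoda1 6 nearly met for the type I-like genes. The difference between the classes was not tested. The ILC2, macrophage, natural killer, T cell, epithelial and dendritic cell marker sums given above did not overlap between the groups either. Those of B cell, plasmacytoid dendritic cell, neutrophil and endothelial markers overlapped. The part of these cells in the class medians was not tested. The genes outside the lists with profiles most like the mean of the 31 type I-like genes were Psen2 (Pearson r = 0.997), Gm28417 (0.989), Brd2 (0.985), AI480526 (0.985) and Zcchc2 (0.984), a description over 6 libraries that share depth and library effects with the profile.

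Upstream, Ifnb1, Ifng and the other interferon genes of the pathway list were not analysed here. The 5 receptor genes had positive changes, and edgeR called none. Ifnar2, Il10rb, Ifnar1 and Ifngr2 are neighbours on chromosome 16 (91372783 to 91565623), so their changes may not be independent. With the suffix term, that is against DMSO 3, the changes were smaller for Ifnar1 (0.19), Ifnar2 (0.18), Ifngr1 (0.27) and Il10rb (0.28). That of Ifngr2 was larger (0.85). Ifngr2 was at 59.5, 58.2 and 46.2 CPM with DMSO and 82.4, 88.1 and 78.6 CPM with Yoda1, with a change of 0.60 (SE 0.15; edgeR, adjusted p = 0.0993). Ifngr1 was at 92.2, 107 and 119.99 CPM with DMSO and 139, 152 and 143 CPM with Yoda1, with a change of 0.44 (SE 0.13; edgeR, adjusted p = 0.153). Every Yoda1 library was above the DMSO range for both interferon gamma receptor genes, and DESeq2 called both higher (adjusted p = 0.00483 and 0.0245). Ifnar1 was at 84.6, 68.1 and 98.6 CPM with DMSO and 104, 103 and 132 CPM with Yoda1, with a change of 0.43 (SE 0.17; edgeR, adjusted p = 0.296). Ifnar2 was at 50.2, 50.3 and 72.9 CPM with DMSO and 91.96, 83.9 and 71.5 CPM with Yoda1, with a change of 0.52 (SE 0.19; edgeR, adjusted p = 0.254). Among the 5 receptor genes, Ifnar2 alone overlapped between groups, and 4 did not overlap in the higher direction (80%, beside 10.6% of all genes). Il10rb, a chain shared by the IL-10 and lambda interferon receptors, was at 65.4, 65.5 and 71.8 CPM with DMSO and 85.3, 79.3 and 96.7 CPM with Yoda1, with a change of 0.37 (SE 0.14; edgeR, adjusted p = 0.261).

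The 3 JAK family kinases were not called. Jak1 and Tyk2, kinases of the type I receptor, were at 516, 520.4 and 559 CPM with DMSO and 569, 536 and 445 CPM with Yoda1 and at 86.8, 112 and 86.2 CPM with DMSO and 118, 122 and 98.2 CPM with Yoda1. Their changes were -0.04 (SE 0.11) and 0.25 (SE 0.15); that of Tyk2 was 0.38 without DMSO 2 and 0.39 with the suffix term. Jak2, which serves the interferon gamma receptor, was at 71.6, 93.02 and 93.5 CPM with DMSO and 53.8, 92.2 and 86.1 CPM with Yoda1, with a change of -0.15 (SE 0.22). The sign of Jak1 and of Jak2 depended on the libraries used.

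Of 7 inhibitors, 1 was called. Socs3, a suppressor of cytokine signalling, was at 128, 134 and 146 CPM with DMSO and 31.6, 44.7 and 25.004 CPM with Yoda1, with a change of -2.01 (SE 0.21; edgeR, adjusted p = 0.00537). All Yoda1 libraries were far below the DMSO libraries. Without DMSO 3 the change was -1.96 and not called (adjusted p = 0.0606). It was -1.93 with DMSO 1 alone, -2.06 with summed libraries and -2.11 with the suffix term, fits in which it was not called either. Socs1, a brake on interferon receptors, was at 815, 696 and 790.4 CPM with DMSO and 528, 563 and 641 CPM with Yoda1. Its change was -0.41 (SE 0.10; edgeR, adjusted p = 0.0965). Socs1 was called lower by DESeq2, and by edgeR with the filter of 10 CPM in 3 libraries or without Yoda1 6.

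The wider pathway list held 98 genes, of which 72 had values and 67 were tested. Of these, 0 rose, 1 fell (1.49%, beside 0.923% of all genes) and 66 were not called by edgeR. An unadjusted p under 0.05 was reached by 7 in the higher and 6 in the lower direction, where 7.39% and 7.11% of all genes did. In DESeq2 the calls were 2 higher and 5 lower, where 3.65% and 4.17% of the 10997 genes with an adjusted p were called. The 24 other type I-like targets tested had a median change of 0.11, with 15 positive and 9 negative. The 12 other GTPase targets tested had a median of -0.45, with 1 positive and 11 negative. Among them Gbp4, Gbp8 and Gbp9 overlap on chromosome 5, with Gbp6 and Gbp10 close by. Irgm2 overlaps Igtp on chromosome 11. How the authors' counting split reads among these genes is uncertain, so the 12 changes may not be independent. Gbp4 was at 149, 219 and 234 CPM with DMSO and 106, 136 and 126 CPM with Yoda1, with a change of -0.71 (SE 0.18; edgeR, adjusted p = 0.107). Gbp10 was at 3.26, 3.47 and 6.72 CPM with DMSO and 1.48, 1.33 and 0.895 CPM with Yoda1, with a change of -1.85 (SE 0.54; edgeR, adjusted p = 0.151). Gm12250 was at 8.88, 8.08 and 11.04 CPM with DMSO and 2.001, 2.02 and 4.297 CPM with Yoda1, with a change of -1.75 (SE 0.42; edgeR, adjusted p = 0.0889). DESeq2 called these 3 genes lower, and they were singled out after their values were seen. By edgeR, Gbp4 was called lower with the filter of 10 CPM in 3 libraries (3.40% of genes lower). Gm12250 was called lower by edgeR without Yoda1 6 (1.04% of genes lower). The 11 tested genes of nucleic acid sensing and interferon induction and the 5 tested interferon gamma-like targets had 0 calls in the edgeR test of 13325 genes. Socs1, also listed as a gamma-like target, was called lower by DESeq2 and by both of these alternative edgeR fits.

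**Figure D4:**
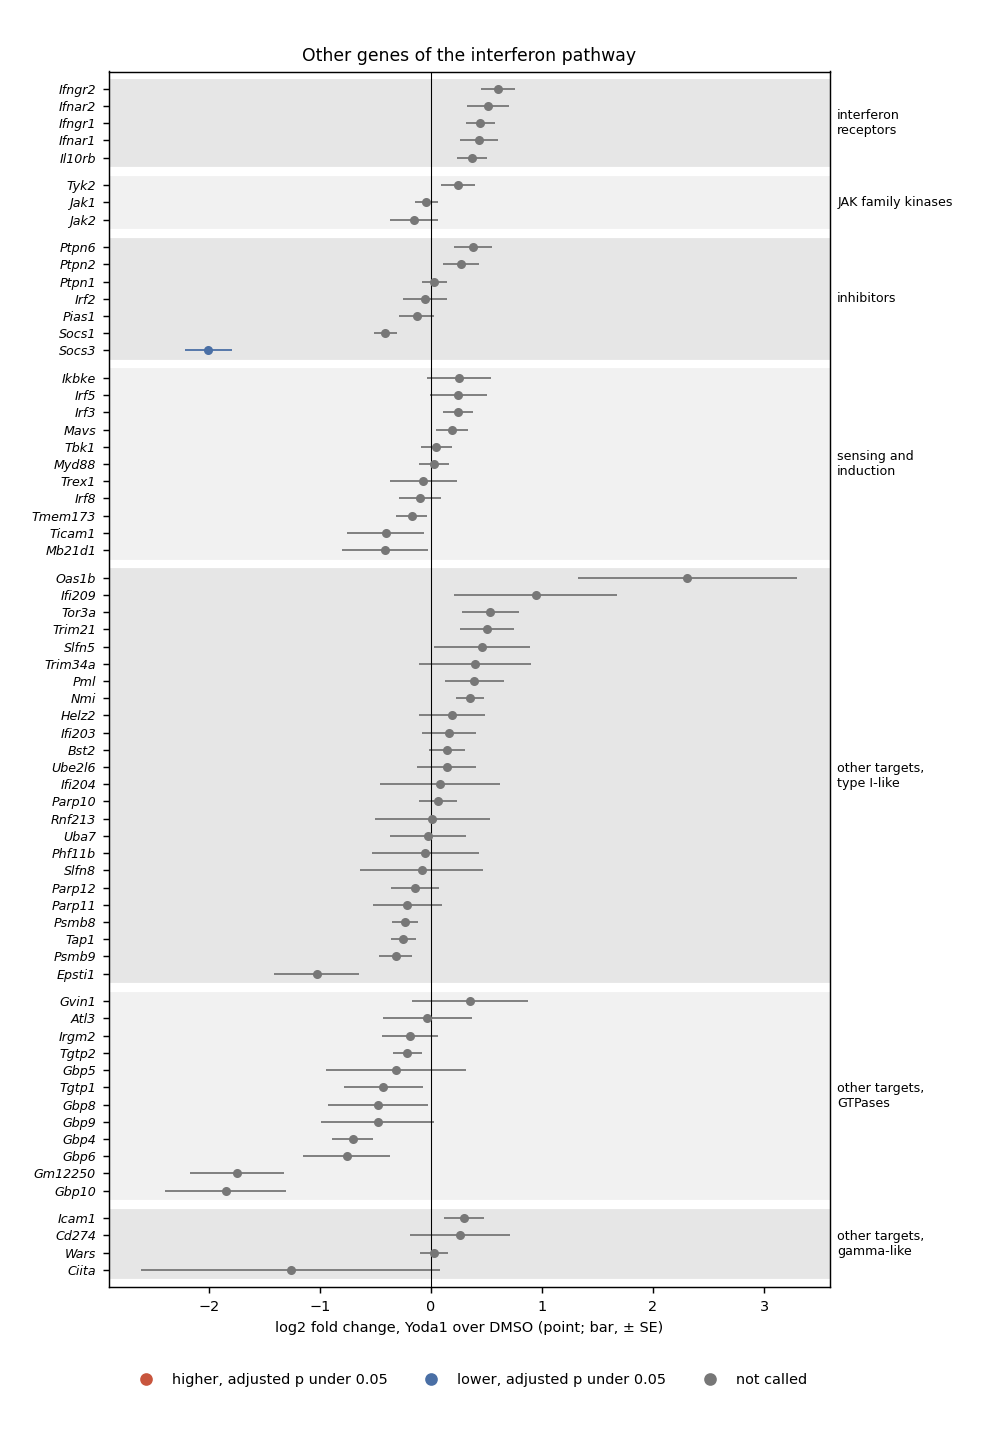
Change of Yoda1 relative to DMSO on the log2 scale (x axis; point with ± SE) of other tested genes of the interferon pathway, by role (y axis); Socs1, listed under 2 roles, is drawn once. The receptors lie right of 0, the other GTPase targets lie left of 0 except Gvin1 (0.35), and Socs3 (-2.01) is the gene called.

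The Ifitm and Ly6 list, of membrane proteins that interferons also induce, held 5 tested genes. The Ifitm genes lie close together on chromosome 7 (140954837 to 141010770), and Ly6a and Ly6e on chromosome 15 (74955051 to 74998031). Their changes may not be independent. Of the 5 genes 0 rose and 4 fell (background 0.923%), and Ly6e was not called, at a change of -0.65 (SE 0.26; edgeR, adjusted p = 0.31). The changes were -3.55 (SE 0.35; edgeR, adjusted p = 0.00452) for Ifitm1, -2.37 (SE 0.38; edgeR, adjusted p = 0.0255) for Ifitm2, -3.82 (SE 0.45; edgeR, adjusted p = 0.00734) for Ifitm3 and -2.64 (SE 0.25; edgeR, adjusted p = 0.00423) for Ly6a. Ifitm3, which blocks virus entry, was at 38.5, 42.2 and 42.3 CPM with DMSO and 1.94, 1.5003 and 5.25 CPM with Yoda1. Ly6a was at 111, 105 and 105 CPM with DMSO and 10.8, 18.8 and 21.8 CPM with Yoda1. All 5 changes were negative in every alternative fit. With each library left out, 2 to 4 of them were called lower, with Ifitm1 and Ly6a called each time, and 0 were called with DMSO 1 alone, with summed libraries or with the suffix term.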

How the data were processed

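RNA-seq libraries of isolated ILC2s (3 DMSO, 3 Yoda1, grouped by sample label) were compared. Per the labels' protocols, 10 ng of RNA entered cDNA synthesis. The authors deposited a table of expected counts, which are estimates and can hold fractions, made on build mm10 per the submitters' processing notes. The aligner and the strand setting: not given in the sources used here. Of the values in a library, 57.1% to 66.5% were whole within 0.001. The table names the control PBS and the labels name it DMSO; the labels were followed.

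Counts were rounded and tested in edgeR 4.0.16 (R 4.3.3), using TMM factors, filterByExpr at 10 counts and a total of 15, a quasi-likelihood fit on group alone, and Benjamini-Hochberg adjustment over 13325 genes. SE is the absolute log2 change over the square root of F. The common biological coefficient of variation was 0.355. The fit was also run on simulated data. The simulated libraries were independent, so that run cannot speak to libraries that share a label number. Alternatives were other scaling, no filter and 10 CPM in 3 libraries, DESeq2 1.42.0, voom in limma 3.58.1 with and without label number as a random effect, libraries of a shared label number summed, DMSO 1 alone, the label suffix as a term, and each library left out. Positions and exon lengths came from GENCODE on GRCm38 (mm10), promoters from RefSeq. For 33 of 34 genes a promoter entry matched a transcript in sense, and entries of a gene were not judged singly.

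Members, lists and tests were chosen with earlier results of these data known. Given in full were members past the threshold, the 2 with the smallest p in roles with fewer than 2 calls, the 2 highest per kilobase in each class, receptors, JAKs and called pathway genes (a further pathway gene is not reported here); other genes given with values were chosen after these were seen.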

Additional observations from a re-analysis of the deposited data

How the results depend on the processing

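Slfn2 and Lgals3bp kept their sign and size in every alternative, within 1.5 times, but not their calls. The number of genes of the list called higher was 0 with summed libraries, with DMSO 1 alone and with the label suffix as a term, against 1, and 0 to 1 with each library left out. The number called lower was 0 in the same 3 fits, 0 to 1 with each library left out, and 2 with DESeq2 and with the filter of 10 CPM, where Igtp joined. Other pathway genes called lower numbered 5 with DESeq2, 3 with the filter of 10 CPM, 0 in the same 3 fits and 0 to 3 with each library left out, against 1; those called higher numbered 2 with DESeq2, against 0. Those 3 fits called at most 2 of all genes in a direction, so a lost call there says little about a gene.

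The type I-like median of 0.0682 was 0.134 with voom, 0.189 with DMSO 1 alone and 0.0631 to 0.198 with each library left out; the cause was not tested. The GTPase median of -0.282 was -0.349 to -0.235 with each library left out, and 5 of its 6 genes were negative in every fit but the one without DMSO 1 (4 of 6). Jak2 was at 0.104 with DMSO 1 alone and at -0.297 to 0.0513 with each library left out, and Jak1 at -0.117 to 0.0560, so the direction of both rests on the libraries used; the cause was not tested. No paired analysis was possible because the groups share no replicate number. The 9 tested genes under 10 CPM had the widest errors; how much of this is depth was not tested.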
